A study of Homo sapiens with 6 samples.

Results

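The genes described here are 46 large genes whose products write, erase or read histone marks or move nucleosomes: histone methyltransferases, acetyltransferases and their coactivators, demethylases, ATP-dependent remodellers and a corepressor. They were taken by name from a table of 34869 genes, all 46 were found in it, and the rule sets no threshold on a measured value. RNA was sequenced in pairs of reads from NCI-H295R, an established human adrenocortical carcinoma line derived from adrenal cortex, which secretes steroid hormones in culture. One group, shTPD52, received a lentiviral short hairpin RNA (shRNA) that targets TPD52, and the other, shCtrl, a lentiviral non-targeting shRNA. Each group had 3 libraries, both groups were the same line in the same medium with serum and an insulin-transferrin-selenium supplement, and the labels name 1 hairpin treatment per group without saying how many hairpin sequences it held. Whether the replicates came from separate cultures is not stated, so every p-value rests on a spread among libraries that may be technical.

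Chromatin regulators of this kind work in large complexes. Methyltransferases of the KMT2 and SETD1 type place methyl groups on H3K4 at promoters and enhancers, SETD2 and the NSD proteins place them on H3K36 in transcribed genes, and EP300 and CREBBP acetylate histones where transcription factors recruit them. Remodellers of the CHD, SWI/SNF and INO80 families use ATP to slide, eject or exchange nucleosomes, and KDM5 and KDM6 proteins take methyl groups off H3K4 and H3K27. Most of these proteins are very large, and their RNAs are correspondingly long. The question set for these genes was whether their RNA levels differ between shTPD52 and shCtrl by more than the levels of other genes of the same length.

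Values are FPKM, reads per kb of gene scaled by the authors to library size, and a fold change is the difference between group means of log2(FPKM + 0.5), shTPD52 minus shCtrl, a scale that understates changes of low genes. Calls come from limma, a linear model fitted to all 12782 genes whose mean was 1 FPKM or more, with a two-sided moderated test, Benjamini-Hochberg adjustment over all those genes and a threshold of 0.05. All adjusted p-values given for genes are from this kind of fit. The targeted gene TPD52, which lies under that level and was added to the fit, had 0.630, 0.635 and 0.655 FPKM in shTPD52 libraries 1, 2 and 3, against 1.42, 1.18 and 1.29 FPKM in shCtrl libraries 1, 2 and 3. Its log2 fold change was -0.65 (SE 0.14, adjusted p = 0.0218), and all 3 shTPD52 libraries lay below all 3 shCtrl libraries. After removal of the length and GC trend, a step described further on, the TPD52 estimate was -0.47 (adjusted p = 0.0756). Depth ran from 29544341 to 38396624 reads in shTPD52 and from 30582681 to 36885546 reads in shCtrl, as worked back from the FPKM. Of 9 adrenocortical markers 8 averaged at least 1 FPKM, with a summed level of 431 to 441 FPKM in shTPD52 and 375 to 401 FPKM in shCtrl. The sum hides opposed differences of single markers. HSD3B2 had 21.9, 21.9 and 20.1 FPKM in the shTPD52 libraries, against 6.05, 4.94 and 6.42 FPKM in the shCtrl libraries. CYP17A1 was lower, with 35.7, 44.9 and 34.7 FPKM in the shTPD52 libraries, against 46.8, 48.8 and 52.5 FPKM in the shCtrl libraries. Of 5 fibroblast markers 1, COL3A1, averaged at least 1 FPKM, with sums of 19.3 to 24.4 FPKM in shTPD52 and 23.2 to 24.9 FPKM in shCtrl. None of 4 endothelial, 4 blood and 3 adrenal medulla markers reached that mean, with sums of at most 0.204, 0.166 and 1.23 FPKM in shTPD52 and 0.181, 0.151 and 0.586 FPKM in shCtrl.

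The shTPD52 libraries did not behave alike. On the first principal component of all tested genes, which held 61.0% of the variance, shTPD52 libraries 1 and 3 lay at -27.3 and -35.3 and library 2 at -0.29, against 16.4 to 24.1 for the shCtrl libraries. The share of reads from mitochondrially encoded genes was 22.3%, 19.5% and 24.2% in shTPD52 libraries 1, 2 and 3 and 17.4% to 18.4% in the shCtrl libraries. The counts over whole lists are therefore also given without shTPD52 library 2.

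Of the 46 genes, 43 averaged at least 1 FPKM and were tested. In shTPD52, 12 of them fell, none rose and 31 did not pass the test. Over all genes tested, 18.3% were called, 12.7% lower and 5.63% higher. The median log2 fold change of the 43 was -0.49, with an interquartile range of -0.59 to -0.39, against -0.11 over all genes tested. In the direction of the estimate alone, 41 of the 43 were negative, and CHD4 and SMARCA2 were the others. In bulk RNA of this kind, fewer cells of one state and less RNA per cell cannot be told apart.

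The genes that fell were KMT2A, KMT2B, KMT2D, SETD5, NSD2, TRRAP, NCOA3, CHD3, ARID1A, SMARCC2, EP400 and KDM5C. Their log2 fold changes lay between -1.07 for NCOA3 and -0.48 for NSD2. For each of these 12, all 3 shTPD52 libraries lay below all 3 shCtrl libraries. Over all 43, the groups did not overlap for 25, with 24 genes below and 1 above, while of all genes tested 28.3% lay below and 13.8% above without overlap.

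The count rested on single libraries. Without shTPD52 library 2, 40 of the 43 were called lower and 1 higher, with a median of -0.67, but 33% of all genes were then called lower and 12.6% higher. Without shTPD52 library 3, 3 (6.98%) were called lower, against 4.46% of all genes. In that fit 21 members (48.8%) had a negative estimate at an unadjusted p under 0.05 in limma and none a positive one. Of all genes 19.3% had such a negative estimate. Without shTPD52 library 1 or any 1 of the shCtrl libraries limma called none, although between 19 and 26 of the members had a negative estimate at an unadjusted p under 0.05 in those fits, and at most 1 had a positive one. Of all genes, limma called 0.741% lower without shTPD52 library 1, and 0.986%, 2.13% and 0.337% lower without shCtrl library 1, 2 and 3, and 18.0% to 20.7% of all genes had a negative estimate at an unadjusted p under 0.05. limma-voom on the reads worked back from the FPKM called 25 lower and 1 higher, against 16.6% of all genes lower and 6.02% higher. Taken library by library on the log2(FPKM + 0.5) scale, the members' median difference from the shCtrl mean was -0.59 in shTPD52 library 1, -0.15 in library 2 and -0.75 in library 3, against -0.07, 0.05 and 0.03 in shCtrl libraries 1, 2 and 3. In shTPD52 library 1, 41 of the 43 lay below every shCtrl library, in library 2 it was 24, and in library 3 it was 42. The same held for 50.3%, 39.5% and 57.2% of all genes tested. TPD52 itself, in contrast, had nearly the same level in all 3 shTPD52 libraries. Library 2, in which the members lay nearest to shCtrl, also had the lowest mitochondrial read share of the 3, and the part of that share in the members' levels was not tested. Rescaling each library to its summed FPKM, not its reads, outside the mitochondrial genes left 13 members called lower and none higher. Of all genes, 14.4% were then lower and 4.2% higher.

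**Figure D1:**
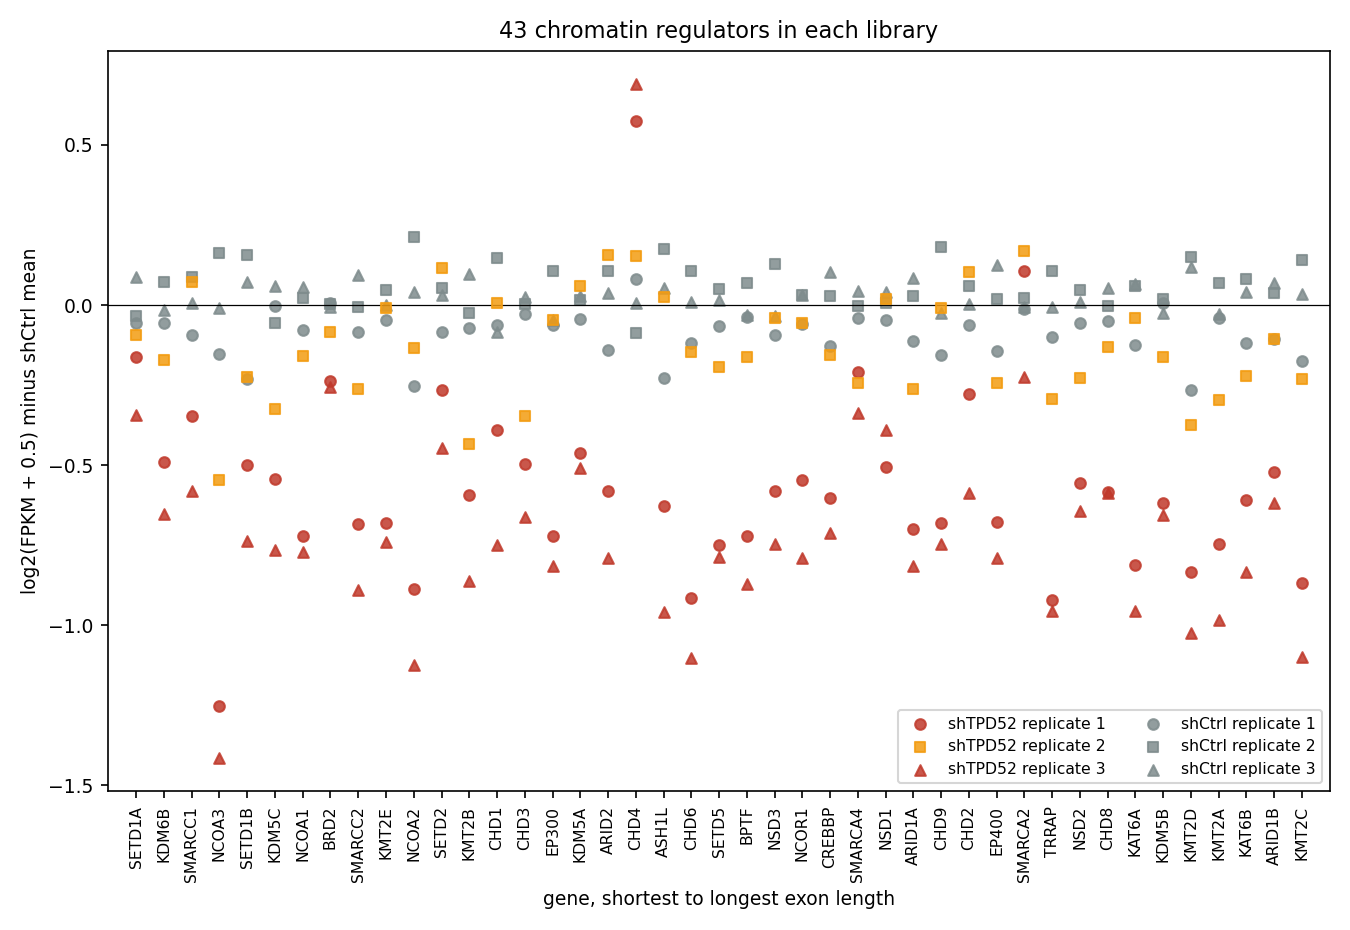
Each column is 1 of the 43 tested chromatin regulators, ordered from the shortest to the longest exon length, and each point is 1 library's log2(FPKM + 0.5) minus the mean of the 3 shCtrl libraries. Circles, squares and triangles are replicates 1, 2 and 3, with shTPD52 in red (replicate 2 in orange) and shCtrl in grey. The shTPD52 library 1 and 3 points lie below the shCtrl points for most genes, the library 2 points lie close to them, and CHD4 is the gene with raised points in libraries 1 and 3.

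The members that were called lower both in the FPKM as deposited and after each library's trend with gene length and GC content was taken out (described further on) were NCOA3, KMT2A, SMARCC2 and KDM5C. Promoter sequence is shown for 3 of these 4, because the RefSeq promoters used here held no entry for SMARCC2. The fold changes of KMT2A and KDM5C were smaller after the removal. The sequences are from RefSeq on GRCh38.p14, and each is the 250 bases before the gene start that RefSeq gives, 5′ to 3′ on the gene's strand, with the only matches to the motifs searched in capitals. NCOA3 is chr20:47501637-47501886 on the plus strand, KMT2A is chr11:118436242-118436491 on the plus strand, and KDM5C is chrX:53225208-53225457 on the minus strand. GENCODE 29 starts KMT2A and KDM5C further upstream, so that 28 bases of the KMT2A window and 215 of the KDM5C window lie inside the gene as GENCODE 29 gives it, and 0 of the NCOA3 window.
NCOA3: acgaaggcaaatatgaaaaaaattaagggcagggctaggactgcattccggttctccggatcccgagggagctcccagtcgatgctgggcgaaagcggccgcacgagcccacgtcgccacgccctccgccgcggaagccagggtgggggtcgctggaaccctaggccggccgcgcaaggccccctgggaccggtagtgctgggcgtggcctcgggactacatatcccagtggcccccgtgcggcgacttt
KMT2A: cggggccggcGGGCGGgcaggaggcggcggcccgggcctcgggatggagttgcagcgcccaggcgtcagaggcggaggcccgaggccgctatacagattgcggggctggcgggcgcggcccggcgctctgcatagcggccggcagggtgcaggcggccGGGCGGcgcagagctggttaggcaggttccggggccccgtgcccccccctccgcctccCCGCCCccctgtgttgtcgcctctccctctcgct
KDM5C: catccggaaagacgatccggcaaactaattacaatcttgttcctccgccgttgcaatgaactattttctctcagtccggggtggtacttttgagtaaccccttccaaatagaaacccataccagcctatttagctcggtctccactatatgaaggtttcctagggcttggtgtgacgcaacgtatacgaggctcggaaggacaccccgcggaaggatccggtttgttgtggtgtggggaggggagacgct
The capitals in KMT2A are its 3 copies of GGGCGG, the GC box that SP1-type factors bind, 1 of them on the opposite strand. NCOA3 and KDM5C hold none of the 4 motifs searched on both strands in this window. CpG dinucleotides number 25 in NCOA3, 31 in KMT2A and 15 in KDM5C. The RefSeq table held 57 promoters for 35 of the 46 members, with a median of 24 CpG dinucleotides, against 11 over all 35116 promoters in the table. GGGCGG was present in 68.4% of the members' promoters and 42.6% of all promoters. The CCAAT box was present in 21.1% and 32.0%, and the ETS motif CCGGAAG in 7.02% and 8.52%. The CREB motif TGACGTCA was in 0 of the 57 and in 1.65% of all. The search did not allow for the CpG content of the promoters, and a match is only a match of letters.

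The H3K4 methyltransferase class, which here counts KMT2E in by family, held 3 of the 12 falls, with 7 of 7 tested. Its median log2 fold change was -0.63, with negative estimates throughout. KMT2A, the founding member of the family and a partner of menin, lies at chr11:118436464-118526832, plus strand (GRCh38, GENCODE release 29, as for all gene positions here) with 31.3 kb of exon, and had 1.69, 2.50 and 1.36 FPKM in the shTPD52 libraries, against 3.08, 3.36 and 3.11 FPKM in the shCtrl libraries. Libraries 1 and 3 were the lowest, library 2 stood between them and shCtrl, and the groups did not overlap. KMT2A averaged 1.85 ± 0.585 FPKM in shTPD52 and 3.18 ± 0.154 FPKM in shCtrl (SD, n = 3 each), with a log2 fold change of -0.68 (SE 0.18, adjusted p = 0.0376). GENCODE 29 places another protein-coding gene, AP001267.5, on the same strand over 17.9% of the KMT2A exon bases, so the split of reads between them is uncertain. KMT2B, its closest paralogue, lies at chr19:35718019-35738878, plus strand, and had 8.59, 9.67 and 7.05 FPKM in the shTPD52 libraries, against 12.6, 13.0 and 14.2 FPKM in the shCtrl libraries. Together with SETD1A it had the highest mean level of the 7, and its shTPD52 libraries were all below its lowest shCtrl library. The log2 fold change of KMT2B was -0.63 (SE 0.12, adjusted p = 0.0180). KMT2D, which marks enhancers, lies at chr12:49018975-49059774, minus strand, and had 3.95, 5.62 and 3.41 FPKM in the shTPD52 libraries, against 6.10, 8.31 and 8.12 FPKM in the shCtrl libraries, a log2 fold change of -0.74 (SE 0.19, adjusted p = 0.0336). Its library 2 approached the lowest shCtrl library without reaching it.

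KMT2C, the partner paralogue of KMT2D at enhancers, had 1.96, 3.33 and 1.60 FPKM in the shTPD52 libraries, against 3.48, 4.46 and 4.11 FPKM in the shCtrl libraries, also without overlap, and its log2 fold change of -0.73 (adjusted p = 0.0523) just missed the threshold. KMT2C has partial near-identical copies elsewhere in the genome, so its count is uncertain, and its 53.3 kb of exon stand beside a longest annotated transcript of 16.9 kb. KMT2E, a reader of H3K4 methylation without known methyltransferase activity, had 7.35, 11.98 and 7.03 FPKM in the shTPD52 libraries, against 11.7, 12.5 and 12.1 FPKM in the shCtrl libraries, where library 2 lay among the shCtrl values. Its log2 fold change was -0.48 (adjusted p = 0.0993). The catalytic subunits SETD1A and SETD1B had log2 fold changes of -0.20 (adjusted p = 0.166) and -0.49 (adjusted p = 0.0698). The SETD1A estimate turned to 0.071 once the length and GC trend was removed.

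Among the H3K36 methyltransferases and related SET proteins 2 of 6 fell, with a median of -0.47. SETD5, a SET-domain protein found with the NCoR and HDAC3 corepressors, lies at chr3:9397615-9479240, plus strand, and had 11.3, 16.9 and 11.1 FPKM in the shTPD52 libraries, against 18.6, 20.1 and 19.6 FPKM in the shCtrl libraries. Libraries 1 and 3 were nearly equal and library 2 was closer to shCtrl. SETD5 averaged 13.1 ± 3.31 FPKM in shTPD52 and 19.4 ± 0.809 FPKM in shCtrl (SD, n = 3 each), with a log2 fold change of -0.58 (SE 0.16, adjusted p = 0.0411). NSD2, which dimethylates H3K36, lies at chr4:1871424-1982207, plus strand, and had 13.6, 17.3 and 12.8 FPKM in the shTPD52 libraries, against 19.5, 20.9 and 20.4 FPKM in the shCtrl libraries. Its 3 shTPD52 libraries lay below its 3 shCtrl libraries, with a log2 fold change of -0.48 (SE 0.12, adjusted p = 0.0321). The other 4 did not pass the test. SETD2, the enzyme that trimethylates H3K36, had a log2 fold change of -0.20 (adjusted p = 0.328), and NSD1 one of -0.29 (adjusted p = 0.163). For both, the estimate crossed to 0.028 and 0.020 after removal of the length and GC trend. NSD3, another enzyme of that type, had -0.46 (adjusted p = 0.106), and ASH1L, which counters Polycomb silencing in flies, had -0.52 (adjusted p = 0.148).

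The acetyltransferases, coactivators and their scaffold held 2 falls of 8 tested, and the median was -0.58. NCOA3, the steroid receptor coactivator also called AIB1 or SRC-3, had the most negative fold change of all 43. It lies at chr20:47501902-47656877, plus strand, with 8.42 kb of exon, and had 1.72, 3.13 and 1.49 FPKM in the shTPD52 libraries, against 4.26, 5.43 and 4.76 FPKM in the shCtrl libraries. Libraries 1 and 3 were the lowest, and library 2 too lay below every shCtrl library. NCOA3 averaged 2.11 ± 0.886 FPKM in shTPD52 and 4.82 ± 0.586 FPKM in shCtrl (SD, n = 3 each), a ratio of 0.438, with a log2 fold change of -1.07 (SE 0.22, adjusted p = 0.0209) and counts of 428 to 1479 reads per library. It was called in 19 of 26 alternative analyses, with adjusted p-values up to 0.0877. TRRAP, a scaffold without enzymatic activity shared by the SAGA and TIP60 acetyltransferase complexes, lies at chr7:98877933-99050831, plus strand, and had 2.84, 4.65 and 2.76 FPKM in the shTPD52 libraries, against 5.39, 6.30 and 5.80 FPKM in the shCtrl libraries. Its log2 fold change was -0.72 (SE 0.18, adjusted p = 0.0336), with library 2 again between the other shTPD52 libraries and shCtrl. The coactivators NCOA1 and NCOA2, paralogues of NCOA3, had -0.55 (adjusted p = 0.0541) and -0.71 (adjusted p = 0.0830).

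EP300, the general coactivator acetyltransferase p300, had 2.39, 4.11 and 2.201 FPKM in the shTPD52 libraries, against 4.05, 4.62 and 4.11 FPKM in the shCtrl libraries. Its library 2 lay within the shCtrl range, and its log2 fold change was -0.53 (adjusted p = 0.0939). Its paralogue CREBBP had -0.49 (adjusted p = 0.0628), without overlap between the groups. KAT6A and KAT6B, acetyltransferases of the MYST family, had -0.60 (adjusted p = 0.0999) and -0.55 (adjusted p = 0.0711). KAT6B was the lower expressed of that pair, with 0.701, 1.07 and 0.527 FPKM in the shTPD52 libraries, against 1.19, 1.44 and 1.38 FPKM in the shCtrl libraries.

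Of the CHD remodellers 7 of 8 were tested, with a median of -0.43, and 1 fell. CHD3, an ATPase of the NuRD complex and the member with the highest mean level, lies at chr17:7884806-7912760, plus strand, and had 32.7, 36.3 and 29.1 FPKM in the shTPD52 libraries, against 45.4, 46.4 and 47.1 FPKM in the shCtrl libraries. The shCtrl values lay close together, and every shTPD52 library was below them. CHD3 averaged 32.7 ± 3.63 FPKM in shTPD52 and 46.3 ± 0.835 FPKM in shCtrl (SD, n = 3 each), with a log2 fold change of -0.50 (SE 0.093, adjusted p = 0.0168). CHD4, the other main NuRD ATPase, went the other way: it had 1.73, 1.16 and 1.91 FPKM in the shTPD52 libraries, against 1.08, 0.905 and 0.998 FPKM in the shCtrl libraries, without overlap. Its log2 fold change of 0.47 (adjusted p = 0.0853) did not pass the test. GENCODE 29 places a protein-coding gene, AC006064.6, on the same strand over 46.9% of the CHD4 exon bases, so the deposited CHD4 level is uncertain, and its value may stand for a part of its reads only. CHD6 had 3.22, 5.85 and 2.77 FPKM in the shTPD52 libraries, against 5.97, 7.06 and 6.57 FPKM in the shCtrl libraries, and a log2 fold change of -0.72 (adjusted p = 0.0628), without overlap. CHD8, which binds beta-catenin, had -0.43 (adjusted p = 0.0632), and CHD1, which travels with elongating polymerase, had -0.38 (adjusted p = 0.168). CHD2 and CHD9 had -0.26 (adjusted p = 0.282) and -0.48 (adjusted p = 0.135). CHD7, the gene mutated in CHARGE syndrome, was too low to test, with 0.0875, 0.110 and 0.0888 FPKM in the shTPD52 libraries, against 0.147, 0.119 and 0.119 FPKM in the shCtrl libraries.

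The SWI/SNF subunits held 2 falls of 7 tested, with a median of -0.41. SMARCC2, the core scaffold BAF170, lies at chr12:56162983-56189567, minus strand, and had 21.8, 29.4 and 18.8 FPKM in the shTPD52 libraries, against 33.3, 35.2 and 37.8 FPKM in the shCtrl libraries. It averaged 23.3 ± 5.44 FPKM in shTPD52 and 35.4 ± 2.23 FPKM in shCtrl (SD, n = 3 each), with a log2 fold change of -0.61 (SE 0.15, adjusted p = 0.0334) and library 2 nearest to shCtrl. The highly expressed MYL6 gene overlaps 6.0% of the SMARCC2 exon bases on the opposite strand, and the strand setting of the counting is not given in the sources used here. ARID1A, the DNA-binding subunit that defines the BAF form, lies at chr1:26693236-26782110, plus strand, and had 6.33, 8.74 and 5.80 FPKM in the shTPD52 libraries, against 9.76, 10.8 and 11.3 FPKM in the shCtrl libraries. Its log2 fold change was -0.59 (SE 0.15, adjusted p = 0.0338), and its groups did not overlap. Its paralogue ARID1B had -0.42 (adjusted p = 0.120), and ARID2, the corresponding subunit of PBAF, had -0.41 (adjusted p = 0.221). SMARCC1, the paralogue of SMARCC2, had -0.29 (adjusted p = 0.216). SMARCA4, the ATPase BRG1, had 14.1, 13.8 and 12.9 FPKM in the shTPD52 libraries, against 15.9, 16.3 and 16.9 FPKM in the shCtrl libraries, with nearly equal shTPD52 libraries, all below shCtrl, and a log2 fold change of -0.26 (adjusted p = 0.0528). SMARCA2, the alternative ATPase BRM, had 3.39, 3.55 and 2.59 FPKM in the shTPD52 libraries, against 3.08, 3.16 and 3.09 FPKM in the shCtrl libraries, overlapping values, and a log2 fold change of 0.017 (adjusted p = 0.934).

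Of the INO80-family ATPases EP400 was tested and fell. EP400, which with TRRAP belongs to the TIP60 complex, lies at chr12:131949920-132081102, plus strand, and had 3.66, 5.13 and 3.35 FPKM in the shTPD52 libraries, against 5.53, 6.24 and 6.76 FPKM in the shCtrl libraries, a log2 fold change of -0.57 (SE 0.16, adjusted p = 0.0419). SRCAP, which deposits the histone variant H2A.Z, was too low to test, with 0.179, 0.191 and 0.109 FPKM in the shTPD52 libraries, against 0.278, 0.302 and 0.312 FPKM in the shCtrl libraries. Another protein-coding gene, AC106886.5, covers 74.1% of its exon bases on the same strand, so its level is uncertain too. The histone readers BRD2 and BPTF did not pass. BRD2, a bromodomain protein that binds acetylated histones, had 34.1, 37.9 and 33.6 FPKM in the shTPD52 libraries, against 40.4, 40.3 and 40.01 FPKM in the shCtrl libraries, the second highest mean of the members, a log2 fold change of -0.19 (SE 0.077, adjusted p = 0.109) and no overlap. BPTF, the large subunit of the NURF remodeller, had -0.58 (adjusted p = 0.0547).

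The demethylases held 1 fall of 4 tested, with a median of -0.46. KDM5C, an X-linked H3K4 demethylase, lies at chrX:53191321-53225422, minus strand, and had 13.0, 15.2 and 11.1 FPKM in the shTPD52 libraries, against 19.1, 18.4 and 20.01 FPKM in the shCtrl libraries. It averaged 13.1 ± 2.06 FPKM in shTPD52 and 19.2 ± 0.790 FPKM in shCtrl (SD, n = 3 each), with a log2 fold change of -0.54 (SE 0.12, adjusted p = 0.0234), and no shTPD52 library reached the lowest shCtrl library. Its paralogues KDM5A and KDM5B had -0.30 (adjusted p = 0.183) and -0.48 (adjusted p = 0.0542). The H3K27 demethylase KDM6B had -0.44 (adjusted p = 0.0523). KDM6A, its X-linked paralogue UTX, was under the level tested, with 0.556, 0.872 and 0.530 FPKM in the shTPD52 libraries, against 0.863, 0.891 and 0.942 FPKM in the shCtrl libraries, where library 2 lay within the shCtrl range. The corepressor scaffold NCOR1, which brings HDAC3 to nuclear receptors, had -0.47 (adjusted p = 0.0922).

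Across the classes, shTPD52 libraries 1 and 3 were the low ones, and enzymes that place a mark and enzymes that remove it moved in the same direction: KMT2A, KMT2B and KMT2D fell, and so did the H3K4 demethylase KDM5C. Among the falls there were also scaffolds (TRRAP, SMARCC2), ATPases (CHD3, EP400) and a coactivator (NCOA3). The classes are small, and no difference between them was tested.

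The members are long. Their exons summed to a median of 14.6 kb per gene, with a range of 6.53 to 53.3 kb, against 4.60 kb over all genes tested. For 7 of the 46 this length is that of GENCODE 29, and for 39 it is the nearest length that gave whole reads in every library. The ratio of those 39 lengths to the GENCODE 29 length had a median of 1.00 and a range of 0.94 to 3.89. Their genes span a median of 119 kb, against 24.9 kb, and their exon GC content had a median of 44.8%, against 48.5%. Their median level was 5.23 FPKM, close to the 5.07 FPKM of all genes tested.

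Fold change fell with exon length over all genes. The median log2 fold change was 0.09 for the 2408 genes under 2 kb, -0.01 for 3105 genes of 2 to 4 kb, -0.12 for 2761 genes of 4 to 6 kb and -0.20 for 1977 genes of 6 to 8 kb. It was -0.25 for 1699 genes of 8 to 12 kb, -0.29 for 699 genes of 12 to 20 kb and -0.33 for 133 genes of at least 20 kb. The share called lower was 6.19% in the shortest bin and 23.3% in the longest. The members' median lay under that of all genes in each bin that held any: -0.29 for 3 members of 6 to 8 kb, -0.53 for 13 of 8 to 12 kb, -0.47 for 18 of 12 to 20 kb and -0.55 for 9 of at least 20 kb. The same held for a list of long genes outside chromatin, described further on. Their medians were -0.42 for 9 genes of 8 to 12 kb, -0.51 for 19 of 12 to 20 kb and -0.53 for 13 of at least 20 kb. Among the members themselves the order by length was loose. Across the 43 genes, which share the same 6 libraries, Spearman's rho between log2 fold change and exon length was -0.18, and it was -0.38 with the longest annotated transcript in place of exon length. Across 12707 genes the same values were -0.34 and -0.39.

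**Figure D2:**
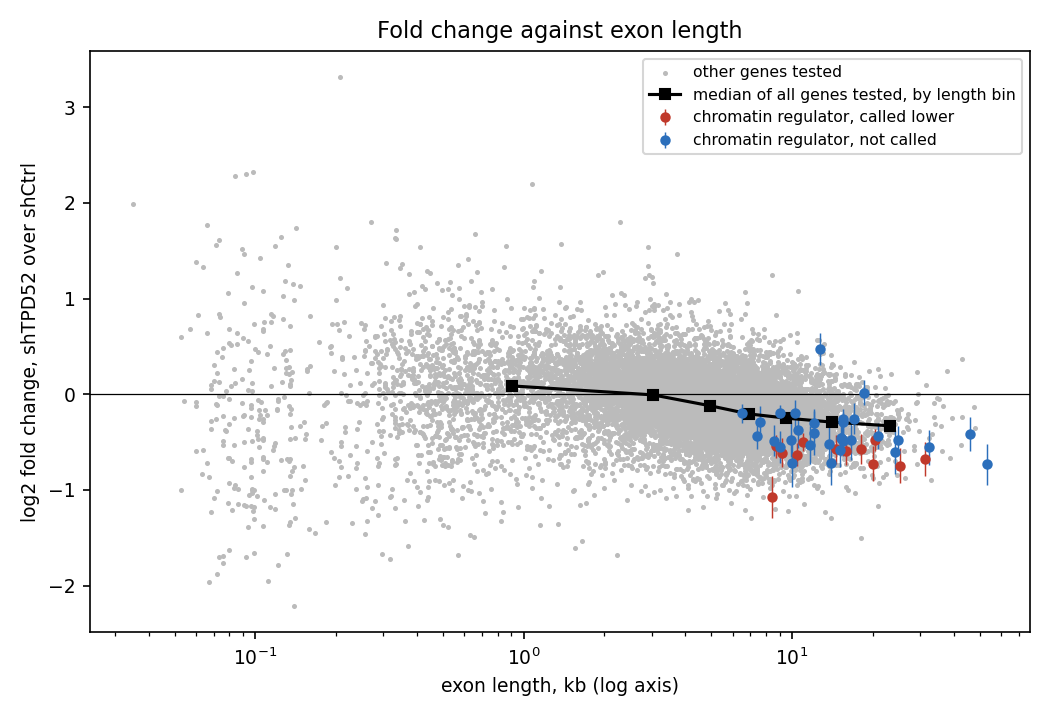
Log2 fold change, shTPD52 over shCtrl, on the y axis against exon length in kb on a log x axis. Grey dots are other tested genes, the black squares are the median of all tested genes in each length bin, and coloured points with standard errors are the 43 chromatin regulators, red where called lower and blue where not. The black line falls from 0.09 in the shortest bin to -0.33 in the longest, and most chromatin regulators lie under it.

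The trend with length differed between libraries in the way the members did. Relative to the shCtrl mean, the median of all tested genes under 2 kb and of those of at least 20 kb was 0.12 and -0.36 in shTPD52 library 1, 0.01 and -0.05 in library 2, and 0.13 and -0.53 in library 3. The library in which long genes of all kinds lay nearest to shCtrl was thus the one in which the chromatin regulators did.

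**Figure D3:**
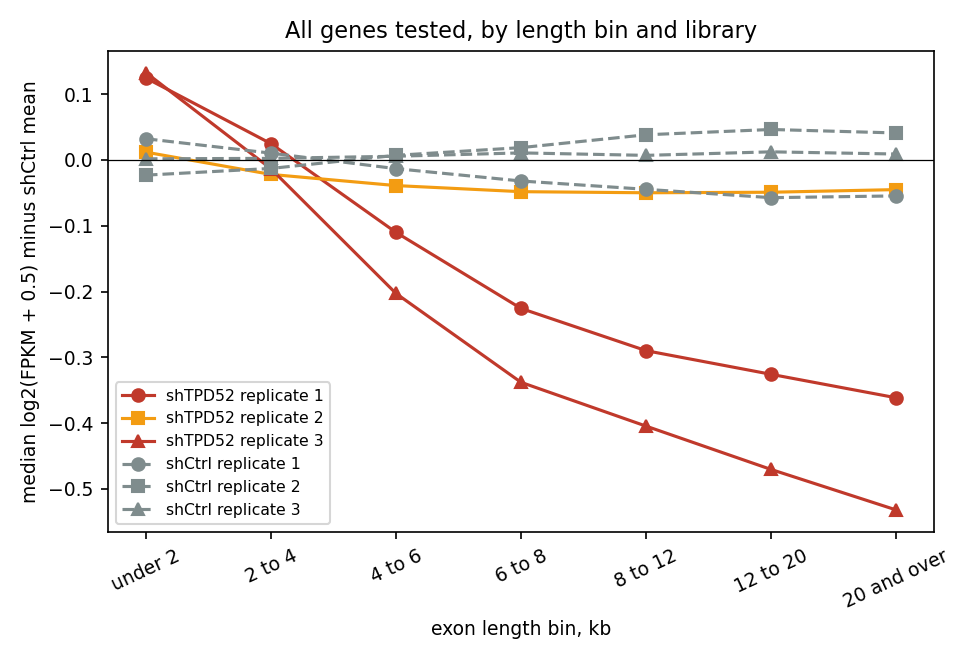
Median over all tested genes of log2(FPKM + 0.5) minus the shCtrl mean, on the y axis, by exon length bin in kb on the x axis, with 1 line per library. Solid red lines (orange for replicate 2) are shTPD52 and dashed grey lines are shCtrl. The lines of shTPD52 libraries 1 and 3 descend to -0.36 and -0.53 at 20 kb and over, while library 2 stays at -0.05.

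To set the members against genes of like length, each library's smooth trend (loess) on exon length and GC content was removed and the model was fitted again to 12707 genes. The median of all genes was then 0.00, and 20.7% of them were called, 10.1% lower and 10.6% higher. The members' median moved to -0.19, with 35 of 43 negative, 6 called lower and 2 called higher. At an unadjusted p under 0.05 in limma, 16 members (37.2%) had a negative estimate and 2 a positive one, against 19.9% of all genes negative. The 4 genes lower in both analyses were NCOA3, at -0.87 (SE 0.14, adjusted p = 0.0118), KMT2A, at -0.32 (SE 0.088, adjusted p = 0.0412), SMARCC2, at -0.36 (SE 0.097, adjusted p = 0.0409), and KDM5C, at -0.27 (SE 0.075, adjusted p = 0.0413). Of these, NCOA3 kept most of its fold change, while those of KMT2A, SMARCC2 and KDM5C were smaller than in the FPKM as deposited. The other 8 falls were no longer called: KMT2B, KMT2D, SETD5, NSD2, TRRAP, CHD3, ARID1A and EP400 had values between -0.34 for TRRAP and -0.13 for NSD2. With the trend on length alone removed, 9 were called lower and 1 higher, against 8.97% and 9.31% of all genes.

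Another 4 genes were called after the removal and not before, and their values by library are given as chosen after the values were seen. NCOA1 had 3.41, 5.28 and 3.28 FPKM in the shTPD52 libraries, against 5.61, 6.05 and 6.21 FPKM in the shCtrl libraries, and a corrected log2 fold change of -0.34 (adjusted p = 0.0441). BPTF had 3.63, 5.59 and 3.22 FPKM in the shTPD52 libraries, against 6.14, 6.64 and 6.17 FPKM in the shCtrl libraries, and a corrected value of -0.30 (adjusted p = 0.0485). CHD4, whose reads may be shared with AC006064.6, was called higher at 0.78 (adjusted p = 0.0455). SMARCA2 was called higher at 0.34 (adjusted p = 0.0429), although its FPKM overlapped between the groups: its fold change was near 0 in the FPKM as deposited, beside a median of -0.29 for all genes of 12 to 20 kb. SMARCA4, the other ATPase of the same complexes, had 0.12 (adjusted p = 0.223), and it too changed sign.

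By length bin, the corrected medians of the members were -0.08 for 6 to 8 kb, -0.26 for 8 to 12 kb, -0.19 for 12 to 20 kb and -0.21 for 20 kb and over. Library by library, the corrected medians of the members were -0.25, -0.04 and -0.31 in shTPD52 libraries 1, 2 and 3. Without shTPD52 library 2 the corrected analysis called 25 lower and 3 higher, while 20.3% of all genes were called lower and 20.1% higher. Leaving out any other single library in the corrected analysis left at most 1 called by limma, with 9 to 15 negative and 2 positive estimates at an unadjusted p under 0.05. Of all genes, limma called 1.16% to 3.75% lower in those fits, and 14.5% to 15.7% had a negative estimate at an unadjusted p under 0.05. With the longest annotated transcript in place of the exon length, 4 of the 43 were lower, near the 10.3% of all genes, and 1 was higher, against 10.6% of all genes. In that fit 17 members had a negative estimate at an unadjusted p under 0.05 in limma and 3 a positive one. Of the members 39.5% were thus negative, against 19.9% of all genes.

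**Figure D4:**
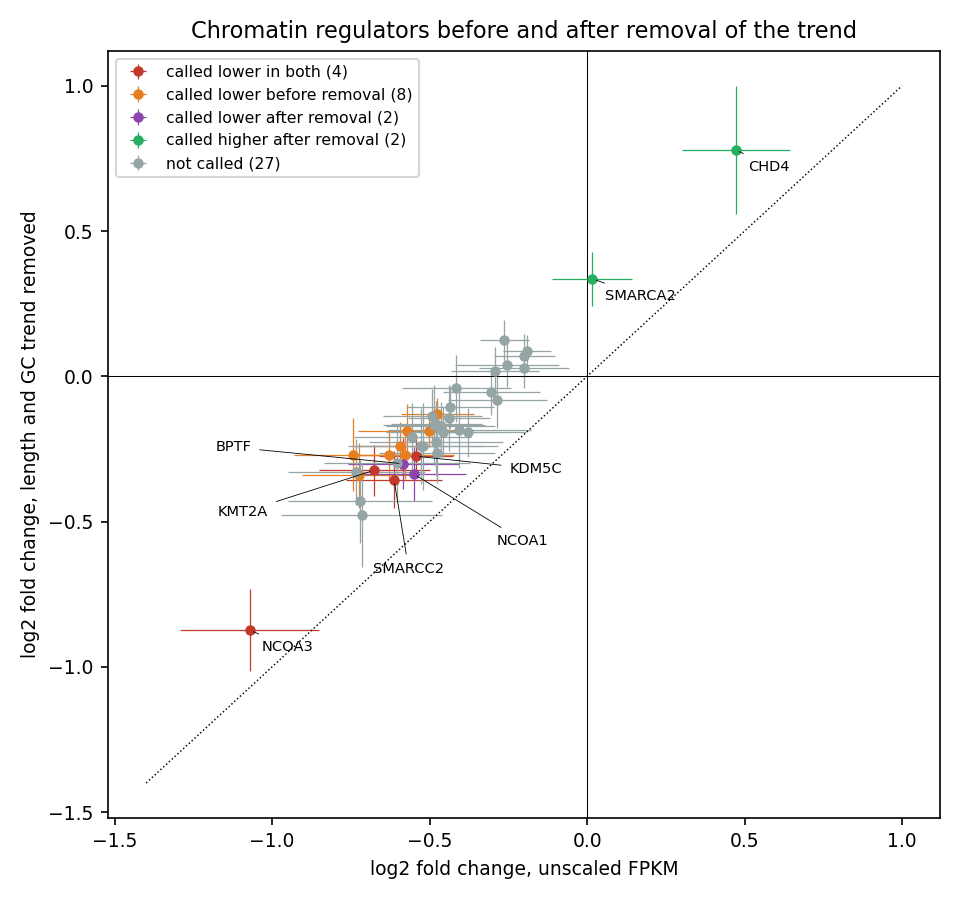
Log2 fold change of the 43 chromatin regulators in the FPKM as deposited (x axis) and after the length and GC trend was removed (y axis), with standard errors in both directions and the dotted line where both are equal. Colours show in which analysis limma called the gene. All 43 points lie above the dotted line, NCOA3 stands apart at -1.07 and -0.87, and CHD4 at 0.47 and 0.78.

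To see the members beside related genes, 3 further lists were read from the same fits. Genes in the first list are 45 long genes outside chromatin, such as cytoskeletal, kinase and ubiquitin ligase genes, of which 41 were tested, with a median exon length of 17.4 kb. In shTPD52, 16 of the 41 fell, none rose, all 41 estimates were negative, and the median was -0.49, the same as that of the chromatin regulators. After the removal of the trend 4 (9.76%) fell, near the 10.1% of all genes, and the median was -0.16. In that fit none rose and 36 of the 41 estimates were negative. At an unadjusted p under 0.05 in limma, 41.5% had a negative estimate and none a positive one, against 19.9% of all genes negative. Its library medians were -0.59, -0.13 and -0.76 in shTPD52 libraries 1, 2 and 3, beside -0.59, -0.15 and -0.75 for the chromatin regulators. CAD, the enzyme that starts pyrimidine synthesis, had 7.66, 9.12 and 7.73 FPKM in the shTPD52 libraries, against 13.5, 14.0 and 15.9 FPKM in the shCtrl libraries, a log2 fold change of -0.79 (adjusted p = 0.00851). The ubiquitin ligase UBR4 had 5.10, 7.21 and 4.72 FPKM in the shTPD52 libraries, against 9.65, 10.3 and 11.4 FPKM in the shCtrl libraries, with a log2 fold change of -0.84 (adjusted p = 0.0161). All 3 of its shTPD52 libraries lay under shCtrl. The cytolinker PLEC had 5.53, 6.66 and 4.86 FPKM in the shTPD52 libraries, against 8.91, 9.99 and 10.7 FPKM in the shCtrl libraries, and its log2 fold change was -0.75 (adjusted p = 0.0136). CAD and UBR4 also passed after the removal, at -0.50 (adjusted p = 0.00976) and -0.45 (adjusted p = 0.0137).

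The second list held 51 shorter partner subunits of the same complexes, with 49 tested and a median exon length of 5.69 kb. In shTPD52, 2 (4.08%) fell and 1 (2.04%) rose, against 12.7% and 5.63% of all genes, and the median was -0.08. MTA1, a NuRD subunit that works with CHD3 and CHD4, had 7.08, 5.98 and 5.81 FPKM in the shTPD52 libraries, against 8.82, 8.65 and 9.57 FPKM in the shCtrl libraries, and fell, at -0.49 (adjusted p = 0.0216). Its library 2 was as low as the other shTPD52 libraries. GATAD2B, of the same complex, had 5.92, 7.28 and 5.30 FPKM in the shTPD52 libraries, against 8.44, 8.74 and 8.07 FPKM in the shCtrl libraries, and fell, at -0.43 (adjusted p = 0.0449). MORF4L1, a chromodomain reader of H3K36 methylation, had 36.2, 34.2 and 30.6 FPKM in the shTPD52 libraries, against 24.7, 28.7 and 23.0 FPKM in the shCtrl libraries, and rose, at 0.40 (adjusted p = 0.0411). After the removal 6 of the 49 rose and none fell, with a median of 0.08, a share near the 10.6% of all genes called higher. The 6 were MORF4L1, SMARCD2, MBD2, SS18, BRD7 and MBD3. This count depended on the scaling: with median-ratio scaling of the libraries, 5 rose and 1 fell.

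The third list held 38 Polycomb and heterochromatin genes, with 36 tested and a median exon length of 6.08 kb. In shTPD52, 8 of the 36 (22.2%) fell and none rose, against 12.7% of all genes lower, with a median of -0.27. After the removal 4 (11.1%) fell, near the 10.1% of all genes, with a median of -0.07. PHF19, a PRC2 accessory subunit, had 18.3, 20.1 and 18.5 FPKM in the shTPD52 libraries, against 30.6, 27.6 and 28.9 FPKM in the shCtrl libraries, and fell, at -0.60 (adjusted p = 0.00851). Its 3 shTPD52 libraries were close to each other. SETDB1, an H3K9 methyltransferase, had 4.33, 5.45 and 4.13 FPKM in the shTPD52 libraries, against 6.51, 7.72 and 8.03 FPKM in the shCtrl libraries, and fell, at -0.63 (adjusted p = 0.0208). EZH1, the alternative PRC2 methyltransferase, had 6.13, 7.92 and 6.08 FPKM in the shTPD52 libraries, against 10.2, 9.41 and 10.2 FPKM in the shCtrl libraries, and fell, at -0.55 (adjusted p = 0.0229). All 3 also passed after the removal, at -0.36 (adjusted p = 0.0166), -0.43 (adjusted p = 0.0187) and -0.34 (adjusted p = 0.0251).

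Without shTPD52 library 2, 39 of the long genes outside chromatin, 12 of the compact partners and 22 of the Polycomb and heterochromatin genes were called lower, beside 40 of the chromatin regulators. In that order these were 95.1%, 24.5%, 61.1% and 93.0% of the tested genes of each list. Of all genes tested 33.0% were then called lower, a larger share than that of the compact partners. No test was made of 1 list against another. Median-ratio scaling of the libraries, which set the median of all genes at 0.00, against -0.11 as deposited, called 16.6% of all genes, 8.12% lower and 8.47% higher. Under it 11 chromatin regulators were lower, none was higher and their median was -0.38.

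**Figure D5:**
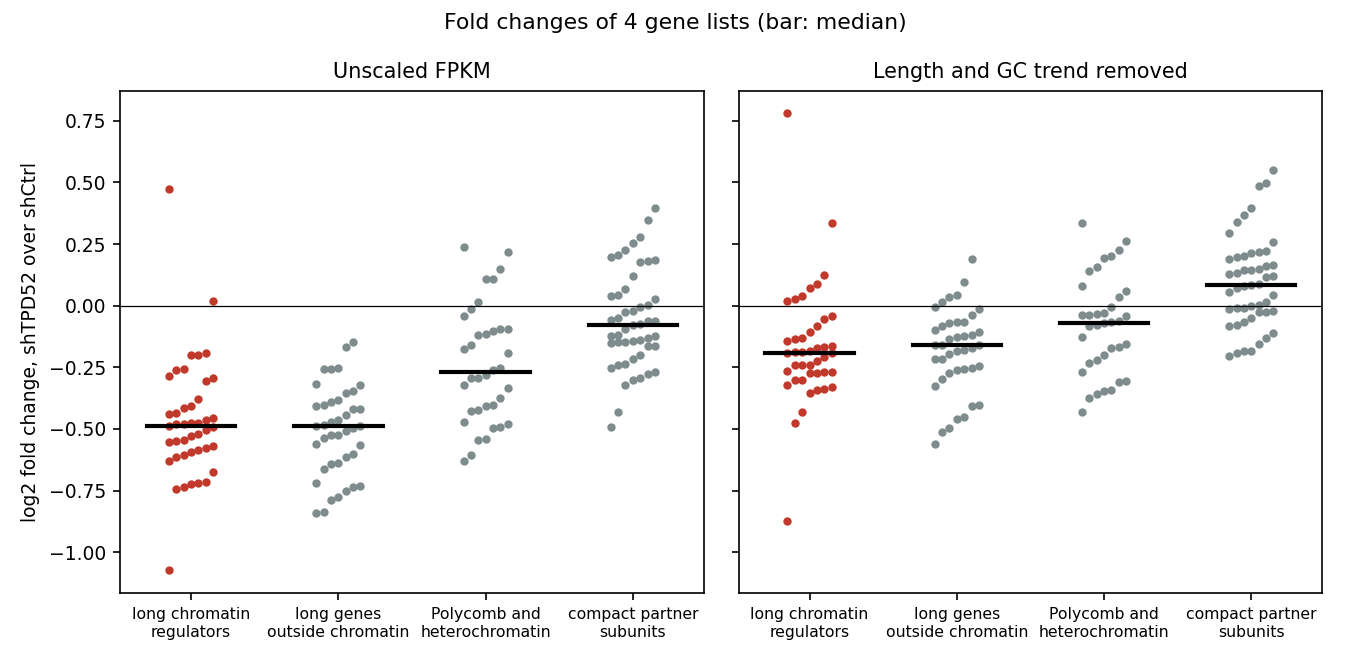
Log2 fold changes, shTPD52 over shCtrl, of the tested genes of 4 lists, with each point 1 gene and the bar the median. The left panel uses the FPKM as deposited and the right panel the values after removal of the length and GC trend. The bars of the chromatin regulators and of the long genes outside chromatin stand at -0.49 on the left and at -0.19 and -0.16 on the right, and those of the compact partners at -0.08 and 0.08.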

How the data were processed

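RNA of 3 shTPD52 and 3 shCtrl libraries of NCI-H295R cells was measured by paired-end RNA-seq. Per the labels' protocols, TRIzol was used for total RNA and a VAHTS Universal V6 kit for the libraries. The authors deposited FPKM for 34869 genes in 6 columns. HISAT2 2.2.1, featureCounts 2.0.3 and GRCh38 (hg38) are named in the submitters' processing notes. No source used here gives the annotation release, the strand setting or the read filters. Symbols and positions were matched by gene ID to GENCODE release 29 and to the gene name table (34864 of 34869). The 46 members, the further lists and the tests were chosen with earlier results of these data known.

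Because low FPKM values are whole multiples of 1 read, library totals and gene lengths were worked back from them (tolerance 0.02 reads, 33418 genes with a length). Exon length was that of GENCODE 29 where this gave whole reads in all libraries (19235 genes), otherwise the nearest length that did (14183 genes). Recovered reads summed to 100.56% to 100.65% of the totals, and only 27.3% to 30.6% of counts from 1 to 20 were odd, so mates of a pair may have been counted singly. Members had 44 to 19134 reads per library. The limit that 3 reads set for a gene of 10 kb was 0.0078 to 0.0102 FPKM, for counting error only.

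limma 3.58.1 in R 4.3.3 was fitted to log2(FPKM + 0.5) of the 12782 genes whose mean was 1 FPKM or more, with no further scaling, an intensity trend in the prior and Benjamini-Hochberg adjustment over all of them. TPD52 was added to a fit of its own. Trends on exon length and GC content were removed per library with loess (span 0.3) for 12707 genes with both values. The procedures were tested on simulated data in which all libraries of a group shared the same length trend. The shTPD52 libraries here differed in that trend, a case the simulation did not cover. Values by library are given for the members called (up to 12 in each direction), those whose call changed after the removal (up to 8) and the 3 with the highest mean, and for other members as examples chosen after their values were seen. Of each other list the 3 called genes with the smallest p are named. Alternatives were a pseudocount of 0.1 or 1, a filter of 5 FPKM or none, and scaling by median ratio, by quantiles or to summed non-mitochondrial FPKM. Others were limma with no intensity trend or a robust prior, the replicate block, the removal of length alone or with GC content, and leaving out each library. Added after the data were seen were limma-voom on the recovered reads, the longest transcript as length, and the removal combined with the block or with leaving out a library.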

Additional observations from a re-analysis of the deposited data

How the results depend on the processing

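Counts and medians were recomputed under 27 alternatives, the values as reported given first. The 12 chromatin regulators called became 5 with the longest-transcript correction, 26 with limma-voom, 25 with the replicate block and 0 with no filter. With the length and GC correction and the replicate block they became 4, of which 3 were lower. They ranged from 0 to 41 when 1 library was left out. Of all genes, 9.31% were called lower with that correction and the block, and 16.9% with the block alone. With no filter, 30 of the 46 chromatin regulators (65.2%) had an unadjusted p under 0.05 in limma and a negative estimate, and 1 a positive one. Of all 34869 genes, which then include those under 1 FPKM, 12.2% had such a negative estimate. In the fit as reported, to genes of at least 1 FPKM, these shares were 72.1% of the chromatin regulators and 26.8% of all genes. The chromatin regulators' median of -0.49 moved to -0.15 with the longest-transcript correction. Without 1 library it ran from -0.67 to -0.38 as deposited, and from -0.26 to -0.16 after the length and GC correction. Over all genes, 2341 calls became 531 with no filter, and 93 to 5822 without 1 library. The 3 calls among compact partners became 8, 6, 6 and 5 after correction with the longest transcript, with the block, with length and GC, and with length alone, 5 with limma-voom, 6 with median-ratio scaling, 5 with non-mitochondrial rescaling, 1 with no trend, 0 with no filter, and 0 to 16 without 1 library. The 8 Polycomb and heterochromatin calls became 4 with each of length and GC, the same with the block, and length alone, 5 with median-ratio scaling, 3 with quantile normalization, 1 with no filter, and 0 to 23 without 1 library. The 16 calls among long genes outside chromatin became 4, 4, 4 and 9 after correction with the longest transcript, with the block, with length and GC, and with length alone, 1 with no filter, 26 with the replicate block, and 0 to 39 without 1 library.

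TPD52 lost its call, with the same direction, at -0.65 with a filter of 5 FPKM or none, -0.52 with the longest-transcript correction, -0.47 with length and GC, with or without the block, and -0.43 with length alone. Without 1 library it ran from -0.70 to -0.60 as deposited, called only without shTPD52 library 2 (-0.65, adjusted p = 0.0107), and from -0.57 to -0.36 after the length and GC correction, never called. Corrections for length turned uncalled estimates positive. By longest transcript, by length and GC content (with or without the block) and by length alone these were 0.082, 0.028 and 0.054 for SETD2, 0.11, 0.020 and 0.0053 for NSD1, 0.056, 0.040 and 0.052 for CHD2, 0.069, 0.12 and 0.035 for SMARCA4 and 0.070, 0.086 and 0.045 for BRD2. By the first and second of these SETD1A was at 0.18 and 0.071, and by the first KDM5A was at 0.023. SMARCA2 turned to -0.037 with non-mitochondrial rescaling. Without 1 library, with or without the correction, log2 fold changes ran from -0.25 to 0.12 for SETD1A, -0.36 to 0.060 for SETD2, -0.45 to 0.095 for NSD1, -0.43 to 0.10 for CHD2, -0.058 to 0.39 for SMARCA2, -0.29 to 0.18 for SMARCA4, -0.25 to 0.10 for BRD2, -0.49 to -0.0030 for KDM5A and -0.46 to 0.00056 for SMARCC1. The causes were not tested.

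The replicate numbers were not shown to pair the libraries: deviations of same-numbered libraries correlated at 0.0451, 0.248 and 0.0223, and shTPD52 library 3 correlated best with shCtrl library 1, at 0.283. With the block, 25 chromatin regulators and 3064 genes in all were called. Reads were few for CHD7 and SRCAP, with 44 to 86 and 57 to 157 per library, and the overlap with AC106886.5 also leaves the SRCAP level uncertain.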
